A study of Mus musculus with 30 samples.

Results

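Of 20321 genes in the expression tables of a mouse digit tip time course, 4 encode transcription factors that direct the osteoblast, the cell that lays down bone, and they were taken by symbol: Runx2, Sp7, Dlx5 and Dlx6. All 4 passed the filter on low counts and were tested with 13793 genes. RNA was taken from digit 3 of the hindlimb of adult male C57Bl/6 mice after removal of the end of the distal phalanx, a loss from which the tip grows back, and the wound was left unsutured. Of the 30 mice, 3 gave tissue at amputation (0 h), 6 at 7 d and 3 at each of the other times, which were 3 h, 6 h, 12 h and 24 h after it and then 3 d, 14 d and 21 d. The dates in the sample titles split the mice into an earlier campaign of 16 and a later one of 14, which share 6 of the 9 times. The mice at 3 h and 12 h were all of the earlier campaign and those at 21 d all of the later. The titles of 0 h replicate 3 and 12 h replicate 2 share both an animal code and a date, so these 2 samples may come from 1 animal, although they are counted here as separate mice. Without 0 h replicate 3 the Sp7 calls at 14 d and 21 d against 0 h held and those of Runx2 did not. Without 12 h replicate 2 the calls of both genes at these times held. Pairs of times other than those against 0 h were not refitted without either.

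Bone of the distal phalanx regrows by direct ossification, in which mesenchymal cells become osteoblasts without a cartilage model. Runx2 is a runt-domain factor that commits such cells to the osteoblast lineage and works as a complex with its partner Cbfb. Sp7 (osterix), a zinc-finger factor, acts downstream of Runx2 and is needed for osteoblasts to mature and deposit matrix. Dlx5 and Dlx6 are homeobox genes of the distal-less family that pattern the limb and can promote osteoblast genes, and both are also used by other cells, so that a level in a whole digit is not a level in osteoblasts. In whole digits, fewer cells of a type and less RNA per cell cannot be told apart.

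The genes lie on 3 chromosomes of GRCm38. Runx2 (ENSMUSG00000039153) is on the minus strand at chr17:44495987-44814797, and Sp7 (ENSMUSG00000060284) is on the minus strand at chr15:102356606-102367182. Dlx6 (ENSMUSG00000029754), at chr6:6863334-6868568 on the plus strand, and Dlx5 (ENSMUSG00000029755), at chr6:6877805-6882085 on the minus strand, face each other with 9236 bases between them. Of the exon bases of Runx2, 7.49% are shared with the antisense gene Runx2os1, and of those of Dlx6, 9.71% are shared with Dlx6os2. Whether the counting used strand is not given in the sources used here, and reads from these stretches cannot be assigned to one gene. Of all 31-base stretches, 1.14% of those of Runx2 and 3.46% of those of Dlx6 also occur in other genes, and none of those of Sp7 and Dlx5.

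The Runx2 gene is known to be regulated by its own product, and 1 match to the RUNX motif near its start is shown for that reason, from the RefSeq promoters used here (GRCm38.p6). The 30 bases at chr17:44814690-44814719, minus strand, hold the motif, marked in capitals, whose first base is 80 bases before the RefSeq start and within the 5′ UTR of a longer GENCODE M21 transcript.
Runx2 promoter site: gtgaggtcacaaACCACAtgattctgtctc
Both strands were searched for ACCACA, so that TGTGGT counted as well. The 300-base window, from 250 bases before the start to 50 after it, held 3 matches in all, 2 of them after the start. Of 32851 promoters of this length, 16.8% held at least 1 match and 0.183% at least 3. A match is a description of these letters and does not show binding in these digits.

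Total expected counts ran from 3167625 to 16277816 per library, and the later campaign was deeper, with a median of 9836324 against 5083528. Dlx5 had the most reads of the 4, from 110 to 1095 per library, and Dlx6 the fewest, from 0 to 94. Runx2 had 7 to 482 reads and Sp7 6 to 681. The biological coefficient of variation was 0.640 for Dlx6 against 0.328 over all genes, 0.337 for Runx2, 0.335 for Sp7 and 0.236 for Dlx5. The library with 0 reads of Dlx6, replicate 3 of 7 d from a left foot, had 6046501 counts and the fewest genes detected (12191), and the next lowest, with 2 reads, was replicate 1 of 3 d with 10097367 counts. Without replicate 3 of 7 d the log2 fold changes at 7 d against 0 h were 1.02 for Runx2, 0.59 for Sp7, -0.36 for Dlx5 and 0.93 for Dlx6, and none was called by edgeR.

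Over the time course Sp7 and Runx2 changed, and Dlx5 and Dlx6 did not pass the test. With edgeR's quasi-likelihood F-test the adjusted p was 1.57e-08 for Sp7, which ranked 21 of 13793 genes, and 0.000584 for Runx2, which ranked 239. It was 0.269 for Dlx5 and 0.976 for Dlx6. These 2 of 4 stand beside 9.01% of all genes tested. Against 0 h, both Sp7 and Runx2 rose at 14 d and 21 d, when 1.48% and 1.73% of all genes were called higher. In exact permutation tests of 3 against 3 mice, both genes reached 0.1 at both times, the smallest p such a test can give. Runx2 at 3 h, 12 h and 3 d and Dlx5 at 3 h, 24 h and 21 d also reached it without a call. Adjusted over the 32 such tests, all these permutation values were 0.291, so this test does not set the calls apart. None of the 4 was called at 3 h, 6 h, 12 h, 24 h, 3 d or 7 d, when 0.254%, 0.189%, 0.167%, 0.493%, 0.551% and 2.34% of all genes were. These comparisons share the 0 h mice.

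**Figure D1:**
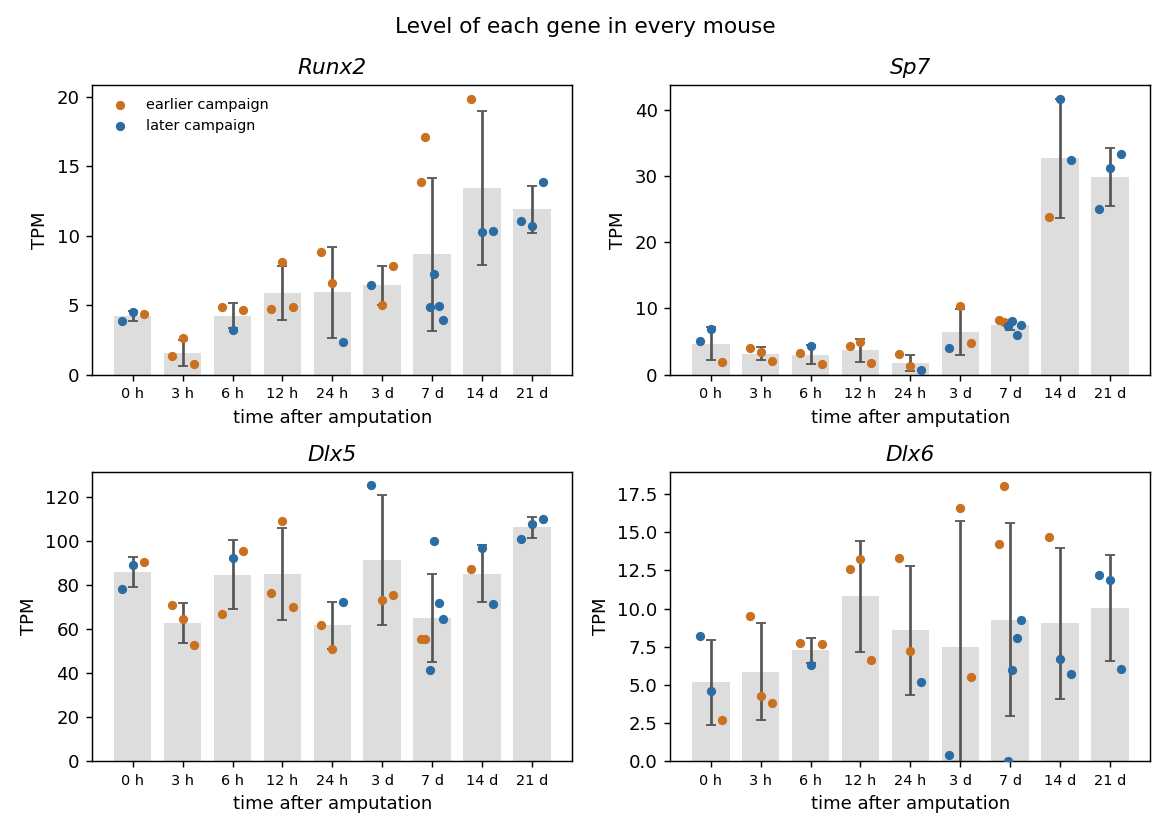
Level (TPM) of each gene in every mouse by time after amputation, with bars for the mean, error bars of 1 SD and points coloured by campaign. Sp7 lies between 0.75 and 10.41 TPM up to 7 d and between 23.8 and 41.65 TPM at 14 d and 21 d, while Dlx5 stays between 41.7 and 125.43 TPM, and the lower error bar of Dlx6 at 3 d passes below the axis.

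Sp7 showed the clearest step. At 0 h its level was 5.03, 6.95 and 1.98 TPM in the 3 mice, and at 24 h, the lowest time, it was 3.15, 1.38 and 0.75 TPM. The 2 lowest mice of 24 h were below every 0 h mouse and the third was not.

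At 7 d Sp7 ran from 6.03 to 8.18 TPM with a median of 7.72 TPM over 6 mice, a narrow range in which 5 of 6 mice exceeded every 0 h mouse. At 14 d it was 23.8, 41.65 and 32.44 TPM, and at 21 d it was 24.97, 31.25 and 33.36 TPM. Every mouse of 14 d and 21 d was above every mouse of the 7 earlier times, the highest of which was 10.41 TPM at 3 d.

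By edgeR's quasi-likelihood test, Sp7 was higher than at 0 h by 2.71 (log2 fold change, SE 0.43, adjusted p = 0.000414) at 14 d and by 2.73 (SE 0.43, adjusted p = 0.000309) at 21 d. The log2 fold change at 7 d was 0.63 (SE 0.38) with an adjusted p of 0.499 from edgeR, and an exact two-sided permutation test of log2(TPM + 1), 1 of 32 such tests of the 4 genes, gave p = 0.0476, where the smallest it can give is 0.0238. At 24 h the log2 fold change was -1.41 (95% interval -2.37 to -0.45, edgeR adjusted p = 0.265).

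The step lay between 7 d and 14 d. Sp7 rose there by 2.08 on the log2 scale (SE 0.34, edgeR adjusted p = 0.00213), in a comparison in which 0.435% of all genes were called, and it was the only one of the 4 genes called between any successive times. Of all genes, 0.16% were called from 3 h to 6 h, 0.0653% from 24 h to 3 d, 0.0145% from 3 d to 7 d, and 0 from 6 h to 12 h and from 12 h to 24 h. From 14 d to 21 d the mean was 32.6 ± 8.93 and 29.9 ± 4.36 TPM (SD, n = 3 each), and no gene of the 13793 was called there. Of the 36 pairs of times, 15 were called for Sp7. All but 1 of these set 14 d or 21 d against an earlier time, and the other was 7 d over 24 h, with a log2 fold change of 2.04 (SE 0.43, edgeR adjusted p = 0.00881). The share of all genes called was counted only against 0 h and between successive times, so most of these pairs have no such share beside them.

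Runx2 changed less than Sp7, and edgeR called it between no successive times. Runx2 at 0 h was 3.84, 4.53 and 4.38 TPM, and at 3 h it was 1.34, 2.63 and 0.79 TPM, all 3 below every 0 h mouse. At 6 h it was 4.84, 3.2 and 4.64 TPM, on both sides of the 0 h mice.

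At 12 h Runx2 was 4.71, 8.13 and 4.86 TPM, and at 3 d it was 6.43, 4.99 and 7.84 TPM, in both cases above every 0 h mouse. Between them, at 24 h, it was 8.84, 6.58 and 2.34 TPM, with 1 mouse under all 0 h mice. At 7 d it ran from 3.94 to 17.11 TPM with a median of 6.09 TPM, the widest range of Runx2 at any time.

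At 14 d Runx2 was 19.85, 10.23 and 10.3 TPM and at 21 d it was 11.09, 10.73 and 13.86 TPM. All 6 of these mice were above every mouse of 0 h to 3 d, and 2 mice of 7 d lay among them.

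Against 0 h, Runx2 was higher by 1.63 (log2 fold change, SE 0.41, adjusted p = 0.0356, edgeR) at 14 d and by 1.59 (SE 0.41, adjusted p = 0.0335, edgeR) at 21 d. Both calls were near the threshold. With limma on log2(TPM + 1) the log2 fold changes were 1.40 and 1.29 with adjusted p of 0.152 and 0.226. Leaving out each of the 30 mice in turn lost the 14 d call in 7 cases, with the log2 fold change from 1.23 to 1.84 and adjusted p up to 0.302, and the 21 d call in 6, from 1.48 to 1.68 and up to 0.187. The mice without which they were lost were each 0 h mouse (both calls), replicates 1 and 3 of 14 d, replicate 3 of 3 d and replicate 3 of 6 h (14 d), and each 21 d mouse (21 d).

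The value of Runx2 at 3 h was -1.21 against 0 h (log2 fold change, SE 0.45), with an adjusted p of 0.302 from edgeR. With campaign as a covariate it was -1.71 with an adjusted p of 0.0475. All 3 h mice were of the earlier campaign, carried the same date in their titles and had 7 to 38 reads of Runx2. At 7 d the log2 fold change was 0.94 (SE 0.37, edgeR adjusted p = 0.219).

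Of the 36 pairs of times, 8 were called for Runx2, and 4 of these had 3 h as the lower time. Of those 4, 3 d over 3 h gave a log2 fold change of 1.73 (SE 0.45, edgeR adjusted p = 0.0463) and 7 d over 3 h gave 2.14 (SE 0.42, adjusted p = 0.00136). The share of all genes called over 3 h at these later times was not counted. No pair of successive times was called, and the difference of 14 d over 7 d was 0.69 (95% interval -0.0032 to 1.39, edgeR adjusted p = 0.401). In the order of mean TPM the sampling times ran 14 d, 21 d, 7 d, 3 d, 24 h, 12 h, 0 h, 6 h and 3 h, and no neighbours in it were called different by edgeR.

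**Figure D2:**
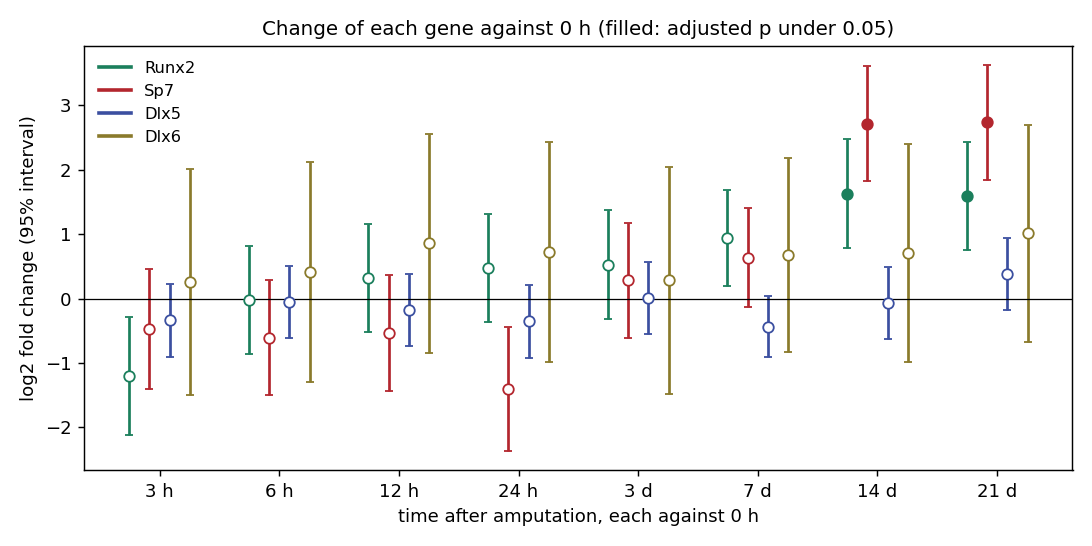
Log2 fold change of each gene at each time against 0 h from edgeR (y axis) with its 95% interval, by time after amputation (x axis), filled where the adjusted p was under 0.05. The filled points are those of Sp7 (2.71 and 2.73) and Runx2 (1.63 and 1.59) at 14 d and 21 d, and the Dlx6 intervals are the widest.

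Dlx5 was the most abundant of the 4 per length at every time and ranged from 41.7 to 125.43 TPM over all mice. It was 78.23, 89.33 and 90.48 TPM at 0 h, and 101.01, 107.75 and 110.32 TPM at 21 d, where all 3 mice lay above every 0 h mouse. At 3 h it was 71.14, 64.65 and 53.02 TPM and at 24 h it was 61.95, 50.99 and 72.65 TPM, all below every 0 h mouse.

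At 7 d Dlx5 ran from 41.7 to 100.3 TPM with a median of 60.4 TPM, and 5 of 6 mice were below every 0 h mouse. No time was called against 0 h by edgeR and none of the 36 pairs. Its estimates lay between -0.43 on the log2 scale (95% interval -0.91 to 0.04, adjusted p = 0.434, edgeR) at 7 d and 0.38 (95% interval -0.18 to 0.93, adjusted p = 0.865, edgeR) at 21 d. At 14 d, when Sp7 and Runx2 were called, that of Dlx5 was -0.08 (95% interval -0.63 to 0.48).

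Dlx6 had the widest spread of the 4 for its level. It was 8.19, 4.62 and 2.73 TPM at 0 h and 12.21, 11.88 and 6.05 TPM at 21 d. At 3 d it was 0.4, 16.56 and 5.5 TPM, the widest spread at one time for its mean.

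At 7 d Dlx6 ran from 0.0 TPM in 1 mouse to 18.02 TPM, with a median of 8.66 TPM. Its mean was lowest at 0 h, 5.18 ± 2.77 TPM (SD, n = 3), and highest at 12 h, 10.8 ± 3.63 TPM (SD, n = 3). The mice of all other times overlapped those of 0 h. No time against 0 h and none of the 36 pairs was called by edgeR, and at 21 d its 95% interval on the log2 scale, from -0.67 to 2.70 (adjusted p = 0.927, edgeR), held both no change and a change as large as that of Runx2.

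The neighbouring Dlx genes were unequal in every library. The mean TPM of Dlx5 was 7.04 to 16.6 times that of Dlx6 at the 9 times, and Dlx5 was the higher in all 30 mice.

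The ratio of Sp7 to Runx2 was not the same at all times. It was examined after the levels had been seen. Permutation tests were run on it, but a test chosen from the values it tests decides nothing, so the values are given as a description. The ratio of mean TPM was 1.09 at 0 h, 0.297 at 24 h, 0.869 at 7 d, 2.42 at 14 d and 2.51 at 21 d. Runx2 was the higher of the pair in all 3 mice of 12 h and of 24 h, and Sp7 was the higher in all mice of 3 h, 14 d and 21 d.

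**Figure D3:**
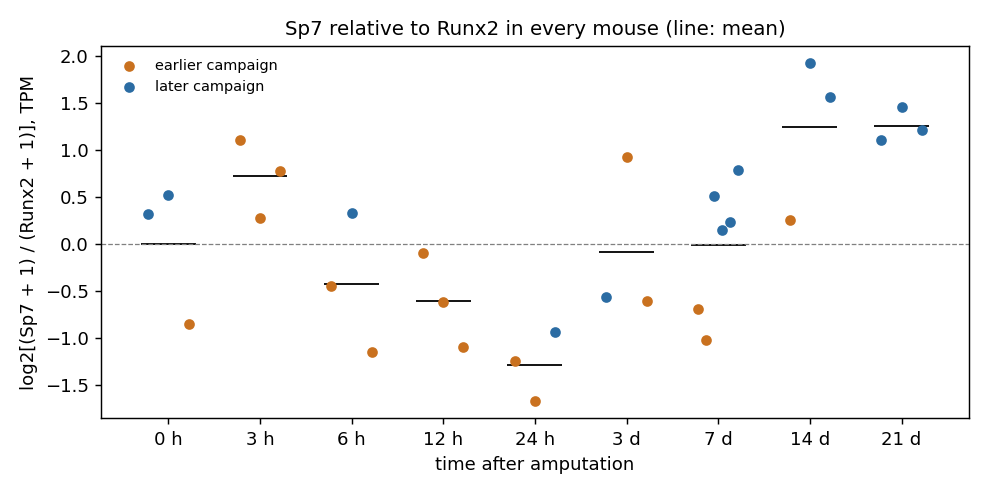
Log2 ratio of Sp7 to Runx2, each as TPM + 1 (y axis), in every mouse by time (x axis), with a line at the mean of each time and points coloured by campaign. The 24 h mice lie between -1.67 and -0.93 and the 21 d mice between 1.10 and 1.46.

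Campaign moved with some of these values. At 7 d the 2 earlier mice had 13.84 and 17.11 TPM of Runx2 and the 4 later mice 3.94 to 7.22 TPM, and at 14 d the earlier mouse had 19.85 TPM and the later ones 10.23 and 10.3 TPM. Of the later mice at 7 d, 3 were sampled from the left foot. Earlier mice were also above later ones for Runx2 at 6 h and 24 h, and overlapped them at 0 h and 3 d.

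For Sp7 the earlier mouse was below the later ones at 0 h, 1.98 against 5.03 and 6.95 TPM, and at 14 d, 23.8 against 32.44 and 41.65 TPM. The earlier mice were also below at 6 h, above at 24 h and 3 d, and overlapped the later ones at 7 d. For Dlx6 the earlier mice were above the later ones at 6 h, 24 h, 3 d, 7 d and 14 d and below them at 0 h. For Dlx5 they were below at 24 h and 3 d and above at 0 h, and overlapped the later ones at 6 h, 7 d and 14 d. At 0 h, 6 h, 7 d and 14 d, and at 24 h with 1 added to each TPM, all earlier mice also had a lower ratio of Sp7 to Runx2 than all later ones, and all mice of 21 d, where the ratio was high, were of the later campaign.

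Within campaigns the late rise of Sp7 and Runx2 was seen in both at 14 d, from few mice. On the log2(CPM + 1) scale, Sp7 at 14 d was higher than at 0 h by 3.23 in the earlier campaign (1 mouse against 1) and by 2.40 in the later (2 against 2), and at 21 d by 2.25 in the later (3 against 2). Runx2 at 14 d was higher by 2.16 in the earlier campaign and 1.14 in the later, and at 21 d by 1.50 in the later. The low values of Sp7 before 3 d were not seen in both campaigns. At 24 h Sp7 differed from 0 h by 0.06 in the earlier campaign (2 mice against 1) and by -1.95 in the later (1 against 2), and at 3 h, 6 h and 12 h by 0.63, 0.13 and 0.55 in the earlier, where the pooled differences were -0.29, -0.48 and -0.38. Dlx6 at 3 d, 7 d and 14 d also differed in sign, with 1.26, 1.76 and 1.85 in the earlier campaign and -1.80, -0.33 and -0.08 in the later. So did Sp7 at 6 h and 3 d (0.13 and 1.47 against -0.33 and -0.53). Runx2 differed in sign at 6 h and 24 h (0.11 and 0.73 against -0.25 and -0.38). Dlx5 did at 6 h, 24 h, 3 d and 14 d, with -0.24, -0.70, -0.32 and 0.02 in the earlier. In the later these were 0.21, 0.16, 0.48 and -0.13. A test of time by campaign over the 21 libraries of the 6 shared times called 0.883% of 13587 genes and none of the 4, with edgeR adjusted p of 0.379 for Runx2, 0.385 for Sp7, 0.648 for Dlx5 and 0.638 for Dlx6. Their unadjusted p was 0.0495, 0.0515, 0.200 and 0.193. Without the 3 left-foot mice the test called 2.02% of 13484 genes and again none of the 4, with unadjusted p of 0.0256, 0.0503, 0.0428 and 0.0217 and edgeR adjusted p of 0.205, 0.276, 0.257 and 0.192 in the same order.

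A list of 12 osteoblast matrix and mineral genes was followed beside the factors, whose action on them was not tested. Of the 12, 11 were called over time by edgeR (all but Vdr, the vitamin D receptor), beside 9.01% of all genes tested. This list, like the others here, was chosen with earlier results of these data known. At 14 d and at 21 d 8 of 12 were higher than at 0 h and none lower, with median log2 fold changes of 2.18 and 2.49 beside -0.0039 and -0.0044 over all genes. Col1a1, the main chain of bone collagen, rose by 3.25 (SE 0.40) at 14 d and 3.20 (SE 0.40) at 21 d. Ibsp (bone sialoprotein) rose by 3.86 (SE 0.53) and 4.37 (SE 0.55), and Alpl, the phosphatase that frees phosphate for mineral, by 2.50 (SE 0.43) and 2.67 (SE 0.43).

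At 7 d, when neither Sp7 nor Runx2 was called, 5 of the 12 were higher and 1 was lower, with a median of 0.99. Ibsp was higher by 2.83 (SE 0.48), Col1a1 by 1.50 (SE 0.34) and Spp1 (osteopontin) by 2.99 (SE 0.37). The others that rose were Mmp13, a collagenase, and Tnfsf11 (RANKL), the signal that makes osteoclasts, which had log2 fold changes of 5.68 (SE 0.78) and 4.61 (SE 0.69). These last 2 had also risen at 24 h, by 5.01 (SE 0.78) and 4.21 (SE 0.72), when the level of Sp7 was at its lowest. Spp1 was at a mean of 835 TPM at 3 d, 1092 TPM at 7 d and 348 TPM at 14 d. The osteoclast marker Ctsk was at 421, 1425 and 478 TPM at these times. Which cells of the digit gave the reads of the genes that rose at 7 d was not tested.

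The gene that was lower, Bglap2, encodes the late marker osteocalcin. It was 59.45 to 93.27 TPM at 0 h, listed at 0 in all 3 mice at 3 d, and 0.0 to 20.52 TPM at 7 d, and its log2 fold change at 7 d was -3.15 (SE 0.58, edgeR adjusted p = 0.00246). At 14 d it was 90.81 to 179.12 TPM, higher than at 7 d by 4.13 (SE 0.59, edgeR adjusted p = 0.000565). Bglap and Bglap2 are near-identical copies, so their separate counts are uncertain. From 7 d to 14 d, beside Sp7, 5 of the 12 genes rose (Col1a1, Col1a2, Sparc, Bglap and Bglap2) and Spp1 fell.

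**Figure D4:**
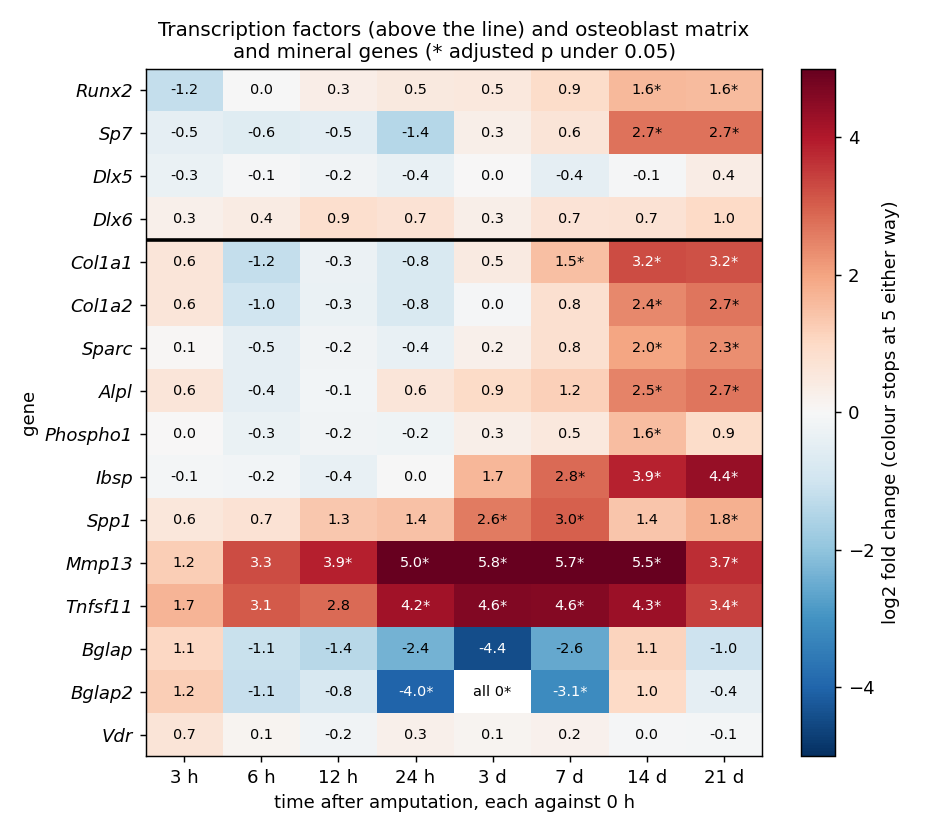
Log2 fold change against 0 h (cell values and colour, edgeR) of the 4 transcription factors above the line and of 12 osteoblast matrix and mineral genes below it, by time, with stars at an adjusted p under 0.05 and "all 0" where no read was counted. Mmp13 is called from 12 h on (3.87), while Sp7, Col1a2 (2.40 at 14 d), Sparc (1.96) and Alpl (2.50) are called only at 14 d and 21 d.

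Of 10 partners and co-activators of the 4 factors, 3 were called over time by edgeR, Mef2c, Atf4 and Cbfb. Mef2c, a MADS-box factor of bone and muscle, was 25.8 to 26.45 TPM at 14 d and 7.97 to 15.0 TPM at 7 d, with no overlap, and rose between them by 1.13 (log2 fold change, SE 0.25, adjusted p = 0.0332). Cbfb, the partner of Runx2, was 57.89 to 69.54 TPM at 3 h, 94.18 to 117.52 TPM at 0 h and 133.66 to 163.62 TPM at 14 d, ranges that do not overlap, and its log2 fold change at 14 d was 0.49 (SE 0.18, adjusted p = 0.284). Against 0 h, Tcf7 at 21 d was the only one of the 10 called, with 1.18 (log2 fold change, adjusted p = 0.0292).

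None of the 8 antagonists (such as Twist1 and Sox9), 10 paralogs of the same families (such as Runx1 and Dlx3) or 11 tested upstream signals (such as Bmp2 and Gli1) was called over time or against 0 h by edgeR. Runx1 at 21 d had a log2 fold change of 0.87 with an adjusted p of 0.129, and Ihh did not pass the filter on low counts.

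Markers of other cells in the digit moved over the same days. The osteoclast markers were called higher in 3 of 5 genes at 3 d, 4 at 7 d and 14 d and 2 at 21 d, and the summed level of the 6 listed genes was 72.0 to 128 TPM at 0 h and 1410 to 4754 TPM at 7 d, with Calcr at 0 in every 0 h mouse. Fibroblast markers summed to 1485 to 1954 TPM at 0 h and 4228 to 5152 TPM at 14 d, with 1 of 5 genes called there and 2 at 21 d. The genes called were Col3a1 at both times, at a mean of 801 TPM at 0 h and 3284 TPM at 14 d, and Lum at 21 d, while Dcn was 620 TPM at 0 h and 431 TPM at 14 d and Pdgfra 26.7 and 33.8 TPM. Of 6 cartilage markers tested, 2 were higher at 14 d and 3 at 21 d. The sum of the 7 listed was 116 to 139 TPM at 0 h, mostly from Comp, and 159 to 254 TPM at 21 d. Mean levels at 0 h and 21 d were 9.4 and 58.2 TPM for Acan and 2.82 and 40.6 TPM for Col2a1. For Comp they were 101 and 89.9 TPM and for Col10a1 10.2 and 4.11 TPM. Leukocyte markers were higher in 2 of 6 genes at 14 d and 21 d.

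No keratinocyte marker of 8 and no nail and hair matrix marker of 5 was called against 0 h or over time. The summed level of the keratinocyte markers was 58018 to 62926 TPM at 0 h and 29200 to 37739 TPM at 14 d, ranges that do not overlap. Most of it came from Krt1 and Krt10, at means of 24593 and 24314 TPM at 0 h and 10327 and 13684 TPM at 14 d. Krt14 was at 7106 and 6433 TPM and Trp63 at 219 and 192 TPM at these times. At 21 d the sum was 25198 to 50893 TPM. Of 5 osteocyte genes tested, Phex and Pdpn were called over time. Against 0 h only Pdpn was called by edgeR, at every time from 6 h on, with its largest log2 fold change at 24 h (3.04, SE 0.36) and 1.85 (SE 0.35) at 14 d. Dmp1 had 0.70 and -0.03 on the log2 scale at 14 d and 21 d. The 12 matrix genes summed to 2323 to 4460 TPM at 0 h, mostly from Col1a1, Col1a2 and Sparc, which fibroblasts also express, and to 16372 to 23871 TPM at 21 d, and Bglap2 was at 0 in every 3 d mouse. The part of these cell types in the change of Sp7 and Runx2 was not tested.

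**Figure D5:**
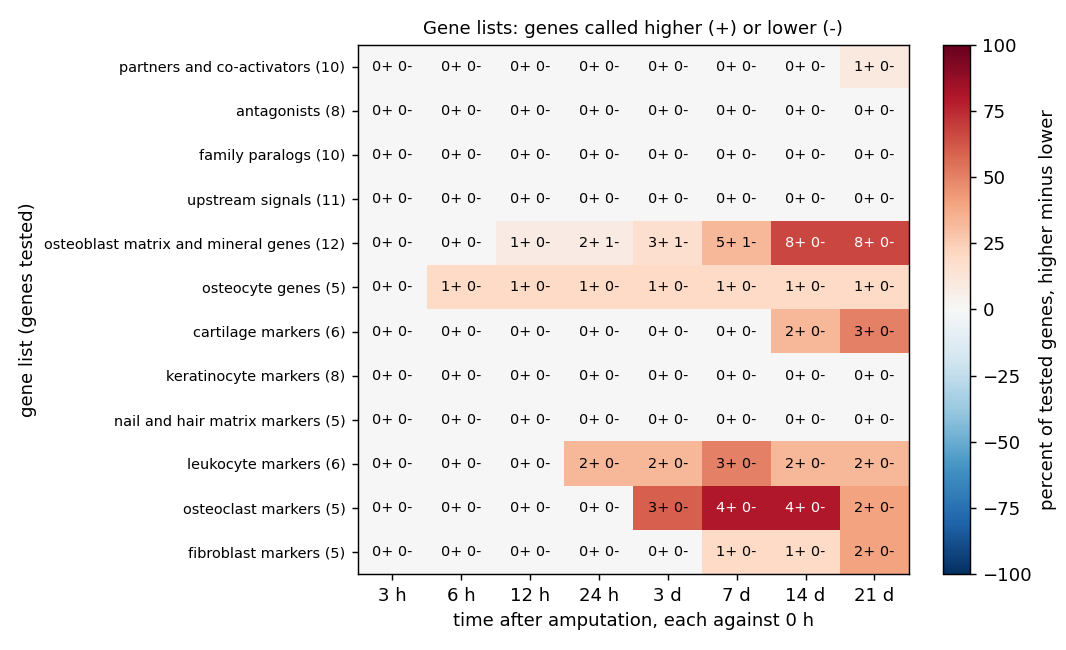
Number of genes of each list called higher (+) or lower (-) than at 0 h by edgeR at each time (x axis), with the number tested in brackets and colour for the percent higher minus lower. The osteoblast matrix and mineral list goes from 0 of 12 at 3 h to 8 of 12 at 14 d and 21 d, and the keratinocyte list stays at 0 of 8.

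The genes whose level over the 30 libraries was most like each factor, by Pearson's r of log2(CPM + 1), differed between the 4. For Sp7 they were Sparc (r = 0.937), Col1a1 (0.932), Col5a1 (0.930), Loxl2 (0.914) and Col6a2 (0.912), all of matrix proteins or their processing. For Runx2 they were Mest (0.869), Grb10 (0.846), Aplnr (0.843), Dclk1 (0.827) and Col4a1 (0.820). For Dlx5 the closest was Ube2n (0.800) and for Dlx6 Dab2 (0.755). The libraries share depth and time, so these values describe the table only. Sp7 itself ranked 278 of 13792 genes for Runx2 (0.638).

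Among mice of the same time, 14 relations of the factors with each other and with the matrix and keratinocyte lists were tested on log2(CPM + 1), and none passed Benjamini-Hochberg adjustment (permutation within times, 100000 resamples). For Runx2 with Sp7 the values were near 0 (r = 0.02, rho = -0.01, permutation p = 0.892 and 0.960, adjusted p = 0.979 and 0.960, and r = 0.05 without the 2 farthest mice). The largest was that of Runx2 with the matrix list (r = 0.62, rho = 0.55, permutation p = 0.00417 and 0.0110, adjusted p = 0.0584 and 0.141, and r = 0.58 without the 2 farthest). Within the earlier campaign it was r = 0.55 over 14 mice and within the later r = 0.47 over 11, with adjusted permutation p of 0.360 and 0.683. Without the 2 farthest mice of each campaign it was r = 0.36 in the earlier and 0.04 in the later. On log2(TPM + 1) 3 of the 14 pooled relations passed by Pearson's r, all with the matrix list, which were those of Runx2 (r = 0.78, adjusted permutation p = 0.00854), Sp7 (r = 0.55, adjusted permutation p = 0.0319) and Dlx6 (r = 0.52, adjusted permutation p = 0.0482). By Spearman's rho only that of Runx2 passed (rho = 0.69, adjusted permutation p = 0.0252). Those of Sp7 and Dlx6 did not (rho = 0.53 and 0.51, adjusted permutation p = 0.0589 and 0.0704). Within campaigns, on log2(CPM + 1), Sp7 with the matrix list had r = 0.75 in the earlier and 0.17 in the later. Without the 2 farthest mice these were 0.73 and -0.28.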

How the data were processed

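The authors mapped reads of poly-A libraries to mouse genes of Ensembl v75 (mm10) using Bowtie, and RSEM 1.2.3 gave the expected counts and the TPM of each gene. The deposited expected counts are not normalized, and the deposited TPM of each mouse are relative to all its genes. The authors' average TPM per time was not used here.

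The expected counts, of which 78.1% were whole, were rounded and tested in R 4.3.3 with edgeR 4.0.16 (TMM, filterByExpr by time, quasi-likelihood tests, all 30 libraries in 1 fit, no covariate, Benjamini-Hochberg over 13793 genes, which hold 99.9% of counts, threshold 0.05). Alternatives used DESeq2 1.42.0, limma 3.58.1 on log2(TPM + 1) and log2(TPM + 0.1), other filters, campaign as a covariate, only right feet at 7 d, the 2 times alone, and each mouse left out. Permutation tests (two-sided) used scipy 1.17.1. The fit was tested on simulated data.

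The 4 genes and all lists were chosen with earlier results of these data known. Genes named are those 4, genes of the lists and the 5 most alike per factor. The ratio of Sp7 to Runx2 and the 36 pairs of times were examined after seeing the data. A 0 h and a 12 h title share an animal code and date, and both were kept as separate mice. Replicate numbers follow accession order. Libraries of 1 time differed by more than sampling noise (chi-square per degree of freedom 9.83 to 94.7 over 39 pairs). The titles give all mice of 3 h the same date, and so for all mice of 12 h, and at each other time some mice share a date. Day and time cannot be told apart at 3 h and 12 h. The labels give no litters, and p-values measure the spread between these mice only. Krt85 and Adgre1 were not analysed here.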

Additional observations from a re-analysis of the deposited data

How the results depend on the processing

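No paired analysis was possible because the labels number no replicates, and the animal code and date that titles share tie only 1 mouse of 0 h to 1 of 12 h. The Sp7 calls at 14 d and 21 d and the calls of Sp7 and Runx2 over time held under every alternative run, with adjusted p over the time course up to 5.94e-06 for Sp7 and 0.0123 for Runx2. The log2 fold changes of Runx2 at 14 d and 21 d lost their calls with limma on log2(TPM + 1) (1.40 and 1.29, also with no filter on low values, adjusted p 0.196 and 0.270) and on log2(TPM + 0.1) (1.57 and 1.46), and, leaving out 1 mouse, ran from 1.23 to 1.84 and from 1.48 to 1.68. Runx2 at 3 h was called with campaign as a covariate (-1.71). The cause was not tested.

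Uncalled log2 fold changes turned sign. Against 0 h with campaign as a covariate these were Dlx6 at 3 h (-0.49) and 3 d (-0.39), Dlx5 at 6 h (0.056) and 12 h (0.10) and Runx2 at 12 h (-0.18), and between successive times Dlx5 at 12 h over 6 h (0.048), Dlx6 at 24 h over 12 h (0.13), and Runx2 (0.27) and Sp7 (-0.071) at 21 d over 14 d. With limma, Dlx6 at 3 d was -0.090 on log2(TPM + 1), with or without the filter, and -0.42 on log2(TPM + 0.1), where Dlx6 at 7 d was -0.0039, both in the fit and as a difference of means. Leaving out 1 mouse, values against 0 h ran from -0.10 to 0.10 for Runx2 at 6 h, from -0.21 to 0.71 for Sp7 at 3 d, from -0.21 to 0.12, -0.28 to 0.16 and -0.13 to 0.027 for Dlx5 at 6 h, 3 d and 14 d, and from -0.25 to 0.76 and -1.16 to 0.94 for Dlx6 at 3 h and 3 d.

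Correlations among mice of a time turned sign within the earlier and later campaign for Runx2 with Dlx5 (r = 0.47 and 0.46) and Dlx6 (-0.12 and -0.35), Sp7 with Dlx5 (0.34 and 0.089), Dlx5 with Dlx6 (0.43 and 0.58) and Dlx5 with the matrix list (0.47 and 0.28). They also did in the later campaign for Sp7 with Dlx6 (-0.55), Dlx6 with the matrix list (-0.053) and Runx2 with the keratinocyte list (0.11), in the earlier for Sp7 with the keratinocyte list (-0.055), and on log2(TPM + 1) for Dlx5 with Dlx6 (0.0080) and Runx2 with the keratinocyte list (0.28). Dlx6 had 0 to 94 reads per library, and its lowest counts were not in the shallowest libraries.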
